A study of Mus musculus with 55 samples.

Results

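The transcripts described here encode the proteins of the mitochondrial ribosome that carry an Mrpl or Mrps symbol. They were taken as the protein-coding genes whose mouse symbol starts with Mrpl or Mrps followed by a digit, which gave 78 genes of 31933 in the tables. Of these, 49 belong to the large (39S) list and 29 to the small (28S) list, named for the subunit in their symbol. The tests covered 77 of the 78 in every fit. Mrpl53 had 0 to 17 counts per library, shares 87.97% of its exon bases with neighbouring genes and was not tested.

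Mitochondrial ribosomes translate only the few messages of the mitochondrial genome, which encode core subunits of the respiratory chain and ATP synthase. Their RNA is transcribed inside the organelle, while all of their proteins are made from nuclear genes and imported. Brown adipocytes are rich in mitochondria and burn fuel for heat, whereas white adipocytes mainly store lipid and hold fewer mitochondria.

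Male C57BL/6NRj mice of 10 weeks drank water with corticosterone (GC), a glucocorticoid hormone, or with placebo (Ctrl) for 4 weeks, and were housed at 13 °C (CT) or 22 °C (RT). Areas were cut out by laser from brown fat between the shoulder blades (iBAT) and from white fat of the gonadal (goWAT) or subcutaneous (scWAT) depot, and about 2 ng of RNA per sample entered full-length SMART-Seq2 libraries. In the order GC_CT, Ctrl_CT, GC_RT and Ctrl_RT there were 5, 5, 5 and 3 libraries of iBAT, 5, 5, 5 and 4 of goWAT, and 4, 5, 5 and 4 of scWAT, 55 in all. No label links a library to its animal, so p-values measure the spread between these libraries, and libraries of different depots can share an animal. In bulk RNA of this kind, fewer cells of a type and less RNA per cell cannot be told apart.

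The iBAT libraries held 14043773 to 35790654 counts, the goWAT libraries 12310822 to 53121372 and the scWAT libraries 8622178 to 56450653. Adipocyte markers were detected in every library. The summed level of 8 brown adipocyte markers in CPM, counts scaled to library size, ran from 6454 to 43082 for iBAT, from 19.95 to 1811 for goWAT and from 64.5 to 3191 for scWAT. Some libraries stood apart: goWAT GC_RT 1 and GC_CT 1 were rich in brown adipocyte markers (1251 and 1811 CPM), and scWAT GC_RT 2 and 3 in macrophage markers (11336 and 7646 CPM). Epithelial markers summed to 283, 331, 73.4 and 87.7 CPM in scWAT GC_CT 4, 5 and 3 and Ctrl_CT 3, where the other scWAT libraries had at most 2.47. In goWAT GC_RT 5, Ctrl_CT 1 and Ctrl_CT 4, 4 epididymis markers summed to 1167, 467 and 3172 CPM, with at most 45.5 in the other goWAT libraries. In iBAT, macrophage markers summed to 5968 CPM in GC_RT 5 and 682 in Ctrl_RT 1 (median 309), and skeletal muscle markers to 1288 in GC_CT 4 (median 7.36). On the log2 CPM scale, skeletal muscle markers were highest of all libraries in scWAT GC_RT 2 (7.27, against 6.17 in iBAT GC_CT 4). Next in iBAT were Ctrl_CT 4 (4.76), Ctrl_RT 3 (4.64), GC_RT 3 (3.75), Ctrl_RT 1 (3.32) and GC_CT 3 (3.17), with a depot median of -0.02. The goWAT libraries GC_RT 2 and 4 had the lowest totals of the depot (12310822 and 18290612 counts) and the highest shares of counts on mitochondrial genes (7.04% and 9.87%). With iBAT Ctrl_RT 3 and GC_RT 3, which like GC_CT 4 had steep slopes on transcript length, 14 libraries were left out together in an alternative for the comparisons between depots; those with epithelial markers were kept there. Results are given without such libraries where this changed a call.

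Promoters of 3 members that carry the results below are shown, since members differed together between depots. Each runs from 250 bases before to 50 bases after the start in RefSeq on GRCm38.p6, and capitals mark the searched motifs. The motifs were the NRF1 palindrome in capitals in the third sequence, CCGGAAG (ETS, the family of GABP) and AAGATGGC (YY1), searched on both strands. The first lies at chr8:71464676-71464975 on the plus strand and holds an ETS match. The second lies at chr13:100744610-100744909 on the minus strand and holds none of the letters searched. The third lies at chr16:84735195-84735494 on the minus strand and holds an NRF1 match.
Mrpl34: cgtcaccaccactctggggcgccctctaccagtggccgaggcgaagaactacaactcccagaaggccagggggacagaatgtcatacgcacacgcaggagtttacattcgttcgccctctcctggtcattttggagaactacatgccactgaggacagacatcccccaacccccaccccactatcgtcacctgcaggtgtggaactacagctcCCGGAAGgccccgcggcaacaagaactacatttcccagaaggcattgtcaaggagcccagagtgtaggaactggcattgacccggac
Mrps36: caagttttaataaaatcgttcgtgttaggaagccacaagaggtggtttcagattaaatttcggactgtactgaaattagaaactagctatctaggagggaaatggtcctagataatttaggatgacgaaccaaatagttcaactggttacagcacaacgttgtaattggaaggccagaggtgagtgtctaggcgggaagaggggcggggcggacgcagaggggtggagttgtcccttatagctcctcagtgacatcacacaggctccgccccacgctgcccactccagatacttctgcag
Mrpl39: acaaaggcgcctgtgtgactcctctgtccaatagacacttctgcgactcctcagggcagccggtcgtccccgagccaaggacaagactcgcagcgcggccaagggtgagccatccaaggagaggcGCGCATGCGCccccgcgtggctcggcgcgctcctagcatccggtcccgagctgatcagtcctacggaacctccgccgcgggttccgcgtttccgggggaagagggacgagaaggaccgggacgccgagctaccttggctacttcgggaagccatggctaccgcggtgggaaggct

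Of the 69 members with a promoter entry, 36.2% held the ETS letters, 17.4% the YY1 letters and 4.35% the NRF1 letters. Among 17492 protein-coding promoters these shares were 11.9%, 3.22% and 1.32%. At least 1 of these motifs stood in 52.2% of member promoters and in 15.6% of all protein-coding ones. TGACGTCA, a cAMP response element, was in 2.90% and 2.34%, CACGTG, an E-box, in 7.25% and 7.90%, and TCAAGGTCA, an ERR site, in 0% and 0.332%. A match is a description of the letters and not a bound site.

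The 11 members called within depots lie at separate places on GRCm38 (mm10). Of the 39S members, Mrpl34 lies at chr8:71464959-71465747, Mrpl39 at chr16:84717576-84735742, Mrpl54 at chr10:81264713-81266934, Mrpl57 at chr14:57826234-57829296, Mrpl44 at chr1:79776018-79781445 and Mrpl33 at chr5:31596935-31664384. Of the 28S members, Mrps36 lies at chr13:100735955-100744659, Mrps25 at chr6:92169525-92184033, Mrps24 at chr11:5703983-5715680, Mrps16 at chr14:20389304-20393634 and Mrps34 at chr17:24895116-24897502.

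Brown fat held the most mitochondrial ribosomal protein RNA. Over all 78 members, summed CPM was 7680 at the lowest, 10337 at the median and 21366 at the highest in the 18 iBAT libraries. It was 3593, 4793 and 6203 in the 19 goWAT libraries and 3238, 5446 and 7436 in the 18 scWAT libraries. Every iBAT library lay above every library of both white depots, while goWAT and scWAT overlapped. These CPM are scaled over all 55 libraries together. In iBAT the sums were 9467, 9590, 14543, 18187 and 14495 in GC_CT, 10424, 12241, 12707, 9860 and 11913 in Ctrl_CT, 10250, 8048, 15368, 9466 and 9197 in GC_RT, and 7795, 7680 and 21366 in Ctrl_RT. The lowest and the highest library of the depot are both among the 3 Ctrl_RT libraries.

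**Figure D1:**
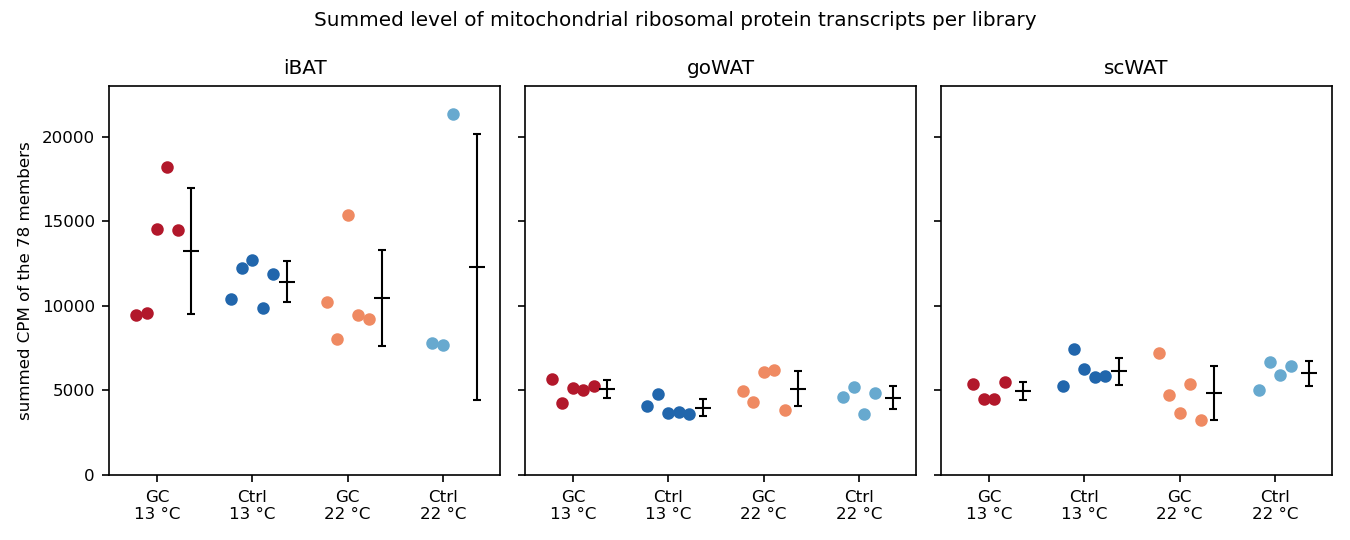
Summed CPM of the 78 members in each library (points), by depot and group, with mean ± SD beside them. The y axis is linear from 0, and iBAT libraries lie at 7680 to 21366, above all libraries of goWAT and scWAT.

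Members ranked alike in the 3 depots. Per kilobase of transcript, the highest mean levels over all libraries were those of Mrpl20 (349 CPM per kb), Mrpl30 (315), Mrpl42 (292) and Mrps21 (283). Mrpl20, a large-subunit protein with a bacterial counterpart, stood at 537 ± 309 CPM per kb in iBAT, 263 ± 78.1 in goWAT and 251 ± 67.2 in scWAT (mean ± SD, n = 18, 19 and 18). The lowest were Mrpl53 (0.188), Mrpl19 (6.45), Mrpl23 (6.79) and Mrpl47 (7.56). Most of the RNA assigned to Mrpl23 and its processed pseudogene Mrpl23-ps1 went to the pseudogene, 92.9% in iBAT, 93.5% in goWAT and 93.8% in scWAT, so the low level of Mrpl23 is uncertain. Across the 78 members, levels in iBAT and goWAT had a Spearman rho of 0.937, those in iBAT and scWAT 0.957, and those in goWAT and scWAT 0.989. These are descriptions across genes of the same libraries, which share transcript length and counting. Within groups, Mrps34, Mrps24 and Mrpl54 varied most (SD 0.71, 0.68 and 0.63 on the log2 CPM scale), and Mrpl44 and Mrpl11 had low SDs (0.23 and 0.27). The SD of Mrpl53 (0.26) is set by its level near the pseudocount and cannot be read as low variation.

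How brown fat differs from the white depots was tested with the mean of the 4 conditions in 1 fit over 55 libraries. In iBAT against scWAT, 75 of 77 members were higher and 0 lower, where 44.6% of all 22245 genes were called and 18.1% were called higher. The median log2 fold change was 1.04 for the members and -0.15 for all genes. In iBAT against goWAT, 74 members were higher and 0 lower, with 57.4% of all genes called and 23.3% called higher (medians 1.26 and -0.20). All 48 tested 39S members were higher in both contrasts (medians 1.09 over scWAT and 1.27 over goWAT). Of the 29 28S members, 27 were higher over scWAT and 26 over goWAT (medians 0.97 and 1.24). Adjusted p of the called members ran from 2.91e-16 to 0.0309 over scWAT and from 1.05e-20 to 0.00310 over goWAT (quasi-likelihood test of edgeR, adjusted by Benjamini-Hochberg over all genes).

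The largest difference was that of Mrps36, whose protein was named for the small subunit and has since been assigned to the 2-oxoglutarate dehydrogenase complex. It had a lowest, median and highest level of 32.9, 87.5 and 217 CPM in iBAT, against 7.21, 16.4 and 26.9 in scWAT and 4.84, 10.7 and 30.5 in goWAT. No iBAT library overlapped either white depot. Over scWAT this held for 4 members (Mrpl37, Mrpl47, Mrps27 and Mrps36), against 0.715% of all genes, and over goWAT for 16, against 1.87%. Its log2 fold change was 2.57 ± 0.18 (± SE here and throughout) over scWAT and 3.12 ± 0.18 over goWAT. The processed pseudogene Mrps36-ps1 took 63.1%, 58.2% and 60.4% of the reads assigned to it and Mrps36 in iBAT, goWAT and scWAT, and differed by 2.72 ± 0.18 over scWAT, and how reads that match both were assigned is not given in the sources used, so both levels are uncertain.

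Mrpl34, a small 39S protein with a bacterial counterpart, came next. Its lowest, median and highest levels were 139.5, 310.3 and 664 CPM in iBAT, 40.8, 85.2 and 141 in scWAT, and 30.3, 50.7 and 94.3 in goWAT. Its log2 fold change was 2.11 ± 0.15 over scWAT, where the highest scWAT library just passed the lowest iBAT library, and 2.75 ± 0.15 over goWAT, with no overlap. Mrpl42 differed by 1.65 ± 0.16 and 2.26 ± 0.16, Mrpl30, a 39S protein, by 1.59 ± 0.14 and 1.96 ± 0.14, and Mrps16, a 28S protein, by 1.52 ± 0.17 and 1.90 ± 0.17 over scWAT and goWAT. Mrps35 and Mrpl39 differed by 1.6 ± 0.18 and 1.52 ± 0.14 over scWAT, and Mrpl55 by 1.95 ± 0.13 over goWAT. These members are among the named ones because their differences were the largest.

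Members with known special roles were higher as well. Mrpl12, part of the stalk that recruits translation factors, stood at 254, 386 and 1725 CPM in iBAT (lowest, median, highest) and at 82.9, 207 and 321 in scWAT, a difference of 1.51 ± 0.19. Mrps12, which lines the decoding site, differed by 0.95 ± 0.14 over scWAT. Mrpl58, a peptidyl-tRNA hydrolase that rescues stalled ribosomes, differed by 0.98 ± 0.16. The 3 related proteins Mrps18a, Mrps18b and Mrps18c differed by 1.13 ± 0.15, 1.14 ± 0.20 and 0.64 ± 0.16. Mrps27, an RNA-binding protein of the 28S subunit, differed by 1.47 ± 0.16, and Mrps14 by 0.83 ± 0.12. Mrpl11, at the base of the stalk, Mrpl41 and Mrps30 differed by 0.71 ± 0.10, 0.88 ± 0.13 and 0.74 ± 0.19. Mrpl44, a protein with an RNase III fold, differed by 0.55 ± 0.09. All of these passed the test over scWAT and over goWAT.

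The exceptions were 28S members. Mrps6, a 28S protein with a bacterial counterpart, had a lowest, median and highest level of 46.3, 90.8 and 192 CPM in iBAT, 41.5, 104 and 234 in scWAT and 56.5, 90.8 and 161 in goWAT. It differed by -0.29 ± 0.16 over scWAT and 0.05 ± 0.16 over goWAT (edgeR adjusted p = 0.140 and 0.801). Mrps26 differed by 0.37 ± 0.20 and 0.11 ± 0.20 (edgeR adjusted p = 0.146 and 0.670). Mrps34 was higher in iBAT than in scWAT (0.58 ± 0.23, edgeR adjusted p = 0.0309) and differed from goWAT by 0.31 ± 0.22 (edgeR adjusted p = 0.231). Mrps34 shares 77.8% of its exon bases with other genes on a protocol that marks no strand.

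**Figure D2:**
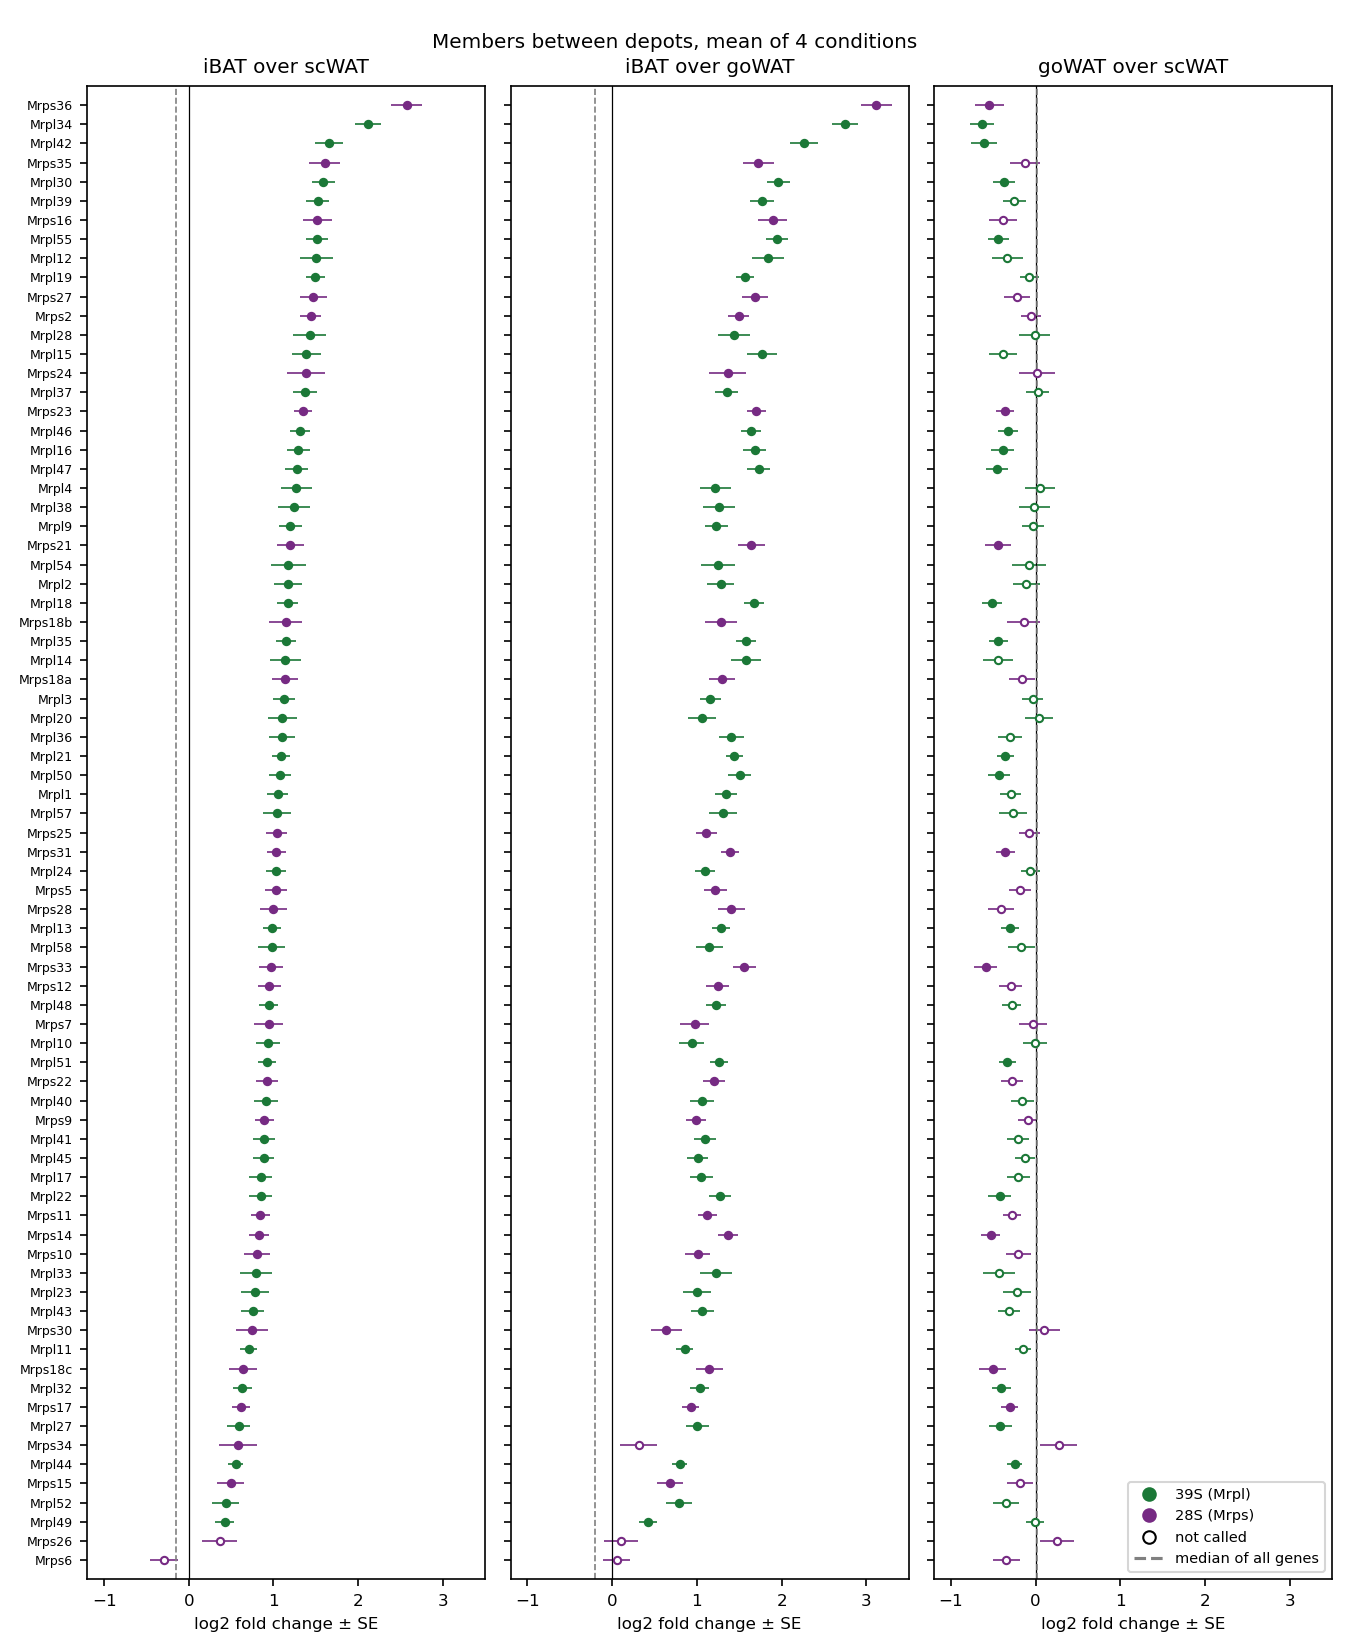
Log2 fold change ± SE of each of 77 tested members in iBAT over scWAT, iBAT over goWAT and goWAT over scWAT, ordered by the first. Filled points passed the test, colour marks the subunit in the symbol (Mrpl or Mrps), and the dashed line is the median of all genes. In the iBAT panels Mrps36 and Mrpl34 lie farthest right and Mrps6 and Mrps26 near 0.

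Each condition taken alone also had more members higher than lower in iBAT, with unequal counts. Against scWAT, 71 members were higher in GC_CT (30.9% of all genes called), 50 higher and 1 lower in Ctrl_CT (18.0%), 57 higher in GC_RT (33.7%) and 27 higher in Ctrl_RT (2.81%), with medians of 1.33, 0.85, 1.08 and 0.90. The member lower in Ctrl_CT was Mrps6 (log2 fold change -1.16, edgeR adjusted p = 0.00542). Against goWAT, 69, 71, 54 and 64 were higher in the same order (38.9%, 36.1%, 26.9% and 14.7% of all genes called), with medians of 1.42, 1.45, 0.96 and 1.23. Ctrl_RT has 3 iBAT libraries.

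Between the white depots, 25 members were lower in goWAT than in scWAT and 0 higher, with 18.0% of all genes called (8.91% higher and 9.12% lower). The median was -0.28 for the members and 0.02 for all genes, and 17 of the 25 were 39S members. The largest differences were those of Mrpl34 (-0.63 ± 0.14), Mrpl42 (-0.61 ± 0.15), Mrps33 (-0.59 ± 0.14), Mrps36 (-0.54 ± 0.17), Mrps14 (-0.53 ± 0.12) and Mrpl18 (-0.51 ± 0.12), at edgeR adjusted p = 0.000858 to 0.0203. No member separated the libraries of these depots without overlap. In placebo mice, 13 members were lower at 13 °C (median -0.59; 5.58% of all genes called) and 8 at 22 °C (median -0.43; 4.33%). In corticosterone mice, 0 were lower at 13 °C (median 0.01; 0.737%) and 1 at 22 °C (median 0.02; 2.46%). At 13 °C with corticosterone, Mrpl34 and Mrps36 had log2 fold changes of 0.29 and 0.00, and at 22 °C with corticosterone Mrps36 had 0.04.

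Genes that work with the mitochondrial ribosome also differed between the depots. In iBAT against scWAT, 18.1% of all 22245 genes were called higher and 26.5% lower. Of 5 mitoribosome proteins without an Mrp symbol, 5 were higher in iBAT than in scWAT (median 1.19), among them Chchd1 (1.42 ± 0.18), Ptcd3 (1.23 ± 0.20) and Gadd45gip1 (1.19 ± 0.17). Of 14 translation factors, 11 were higher, led by Taco1, an activator of cytochrome oxidase translation (2.09 ± 0.15), and the elongation factors Tufm (1.46 ± 0.14) and Gfm1 (1.24 ± 0.15). Of 17 mitochondrial aminoacyl-tRNA synthetases 14 were higher, of 24 assembly and rRNA maturation genes 17, and of 10 transcription and mRNA stability genes 8. The medians of these lists were 0.73, 0.65 and 0.64. The rRNAs themselves, mt-Rnr2 and mt-Rnr1, were higher by 2.72 ± 0.29 and 2.94 ± 0.33, and all 13 mitochondrially encoded proteins were higher (median 1.81). Of 36 nuclear complex I subunits, 36 were higher (median 1.78). Of 83 cytosolic ribosomal proteins 16 were higher and 6 lower (median 0.08). Of 12 regulators of mitochondrial biogenesis 6 were higher, with Esrrg, an oestrogen-related receptor, at 4.27 ± 0.38, Ppara, a fatty acid sensor, at 3.73 ± 0.29 and the coactivator Ppargc1a at 2.41 ± 0.25.

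In goWAT against scWAT, mt-Rnr1 and mt-Rnr2 were lower (-1.22 ± 0.31 and -0.81 ± 0.27), as were 26 of 36 complex I subunits and 6 of 13 mitochondrially encoded proteins. Over all genes, 8.91% were called higher and 9.12% lower there. Of the regulators, Ppargc1a (-1.26 ± 0.24), the nuclear receptor Esrra (-0.81 ± 0.19) and Yy1 (-0.41 ± 0.13) were lower. The assembly gene Lonp1, a protease, was lower (-0.66 ± 0.10) and Trub2, a pseudouridine synthase, higher (0.68 ± 0.15).

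In iBAT over scWAT, the 35 tested members with an ETS, YY1 or NRF1 match had a median of 1.04, and the 33 without one had 1.03. The members lie on 17 chromosomes. A start within 1000 bases of the start of a protein-coding gene on the other strand was found for 18 members, and 33 share exon bases with another gene.

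What corticosterone did in gonadal fat was asked at both temperatures. At 22 °C, 3 members rose and 1 fell among 77, where 5.98% of all 20175 genes were called (3.13% higher and 2.85% lower). The median was 0.22 for the members and 0.05 for all genes, with the member median at 0.07 without GC_RT 4 and 0.32 without Ctrl_RT 2. A correction for transcript length gave 0.09 and 0.13. Mrps25, a 28S protein, had 91.9, 91.2, 57.6, 57.9 and 45.8 CPM in GC_RT, against 33.6, 35.7, 24.1 and 29.3 in Ctrl_RT. Every GC_RT library lay above every Ctrl_RT library, a rise of 1.17 ± 0.24 (edgeR adjusted p = 0.00477). Mrps25 shares 69.8% of its exon bases, mainly with Nr2c2, which differed by -0.28 ± 0.36 (edgeR adjusted p = 0.692). Mrps25 was called without any 1 of the 9 libraries.

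Mrpl54, a 39S protein, had 193, 169.7, 285, 214 and 102 CPM in GC_RT, against 99.3, 110.5, 58.5 and 110.3 in Ctrl_RT. GC_RT replicate 5 lay within the placebo range, and the rise was 1.03 ± 0.27 (edgeR adjusted p = 0.0283). Mrpl57, a 39S protein found in mitochondria but not in bacteria, had 85.9, 117, 140.3, 139 and 66.1 CPM in GC_RT, against 62.6, 74.996, 44.0 and 74.6 in Ctrl_RT. Its groups overlapped through GC_RT replicate 5, with a rise of 0.78 ± 0.23 (edgeR adjusted p = 0.0442). Mrpl44 had 23.7, 27.2, 30.4, 21.7 and 27.7 CPM in GC_RT, against 41.8, 54.8, 33.6 and 35.6 in Ctrl_RT. All GC_RT libraries lay below all Ctrl_RT libraries, a fall of 0.67 on the log2 scale (-0.67 ± 0.18, edgeR adjusted p = 0.0308). At 22 °C the groups did not overlap for 2 members higher and 1 lower (Mrpl35, Mrps25 and Mrpl44), against 3.93% and 4.39% of all genes.

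With 1 library left out, folds kept their direction while several adjusted p were above 0.05. Mrpl54 was not called without Ctrl_RT 1, 3 or 4 or GC_RT 3 (log2 fold change 0.83 to 1.10, edgeR adjusted p = 0.0602 to 0.118), nor with the length correction (0.70, edgeR adjusted p = 0.109). Mrpl44 was not called without Ctrl_RT 1 or 2 or GC_RT 4 (-0.67 to -0.51, edgeR adjusted p = 0.0580 to 0.127). Nor was it called without GC_RT 5, Ctrl_CT 1 and Ctrl_CT 4 together, the libraries with epididymis markers (-0.69, edgeR adjusted p = 0.0603). Mrpl57 was called without GC_RT 1 or GC_RT 5 alone and not without any of the other 7 (0.61 to 0.85, edgeR adjusted p = 0.0626 to 0.166). In all, 1 member was called without Ctrl_RT 1, 2 without Ctrl_RT 2, 3 or 4 or GC_RT 4, and 9 without GC_RT 1. Without both GC_RT 1 and GC_CT 1, the libraries rich in brown adipocyte markers, 9 were called, and without GC_RT 2 and 4, 1 was called.

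Other genes of mitochondrial translation moved in both directions in gonadal fat at 22 °C. Of 13 mitochondrially encoded proteins 4 rose and 0 fell (median 1.51), led by mt-Co2 (2.25 ± 0.44), mt-Atp8 (1.93 ± 0.48) and mt-Atp6 (1.90 ± 0.46). The share of counts on mitochondrial genes was 4.53% to 9.87% in GC_RT and 2.00% to 4.48% in Ctrl_RT, without overlap, and its part in the result was not tested. Of 17 aminoacyl-tRNA synthetases, Nars2 (-1.24 ± 0.34) and Iars2 (-1.09 ± 0.24) fell. The helicase Ddx28 (-1.21 ± 0.31) and Mterf4, which brings a methyltransferase to the large subunit (-0.80 ± 0.21), fell among 24 assembly genes. The translation factor Guf1 (-0.88 ± 0.26) and the ETS factor Gabpa (-0.79 ± 0.22) also fell. Of 82 cytosolic ribosomal proteins 7 rose and 0 fell (median 0.50), and of 36 complex I subunits 0 were called (median 0.33).

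At 13 °C in gonadal fat, 1 member rose and 0 fell, with 1.45% of all genes called (0.848% higher and 0.6% lower). The median was 0.32 for the members and 0.01 for all genes (0.16 and -0.04 with the length correction), and 58 of 77 members were positive. Mrpl54 had 153, 92.7, 186, 151 and 198 CPM in GC_CT, against 74.9, 89.1, 74.8, 84.3 and 60.4 in Ctrl_CT. Every GC_CT library lay above every Ctrl_CT library, a rise of 1.03 ± 0.26 (edgeR adjusted p = 0.0435). It was not called without any 1 of the 10 libraries other than GC_CT 2 (log2 fold change 0.93 to 1.08, edgeR adjusted p = 0.0517 to 0.121), without which 2 members were called. Without GC_RT 1 and GC_CT 1, and without GC_RT 5, Ctrl_CT 1 and Ctrl_CT 4, which held the epididymis markers, 0 were called (DESeq2 called 4 and limma with library weights 20 on all libraries, and 22 members had an unadjusted p under 0.05). The groups did not overlap for 6 members, all higher (Mrpl4, Mrpl10, Mrpl17, Mrpl46, Mrpl54 and Mrpl57), against 2.28% of all genes. Of 82 cytosolic ribosomal proteins 3 rose, and no other list of the pathway had a called gene.

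The same comparisons were made in subcutaneous fat. At 22 °C, 0 rose and 2 fell among 77, with 6.93% of all 19003 genes called (3.48% higher and 3.45% lower). The median was -0.33 for the members and 0.06 for all genes (-0.21 and 0.09 with the length correction), and 12 of 77 members were positive. The member median was -0.50 without GC_RT 1 and -0.21 without GC_RT 5. Mrps24, a 28S protein with a bacterial counterpart, had 192, 109, 66.1, 122 and 72.2 CPM in GC_RT, against 141, 212, 296 and 271 in Ctrl_RT. GC_RT replicate 1 lay within the placebo range, and the change was -1.03 ± 0.29 (edgeR adjusted p = 0.0363). Mrps16 had 129, 81.9, 51.2, 95.4 and 42.4 CPM in GC_RT, against 122, 184, 154 and 158 in Ctrl_RT. Its groups overlapped through the same library, with a change of -0.95 ± 0.28 (edgeR adjusted p = 0.0460). The groups did not overlap for 1 member lower (Mrpl47) and 0 higher, against 4.43% and 4.06% of all genes.

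Both calls were lost without any 1 of Ctrl_RT 2, 3 or 4 or GC_RT 2, 3 or 5 (log2 fold change -1.07 to -0.86 and edgeR adjusted p = 0.0598 to 0.119 for Mrps24, -0.95 to -0.76 and 0.0701 to 0.147 for Mrps16). Without GC_RT 1, the one GC_RT library with a high member sum (7238 CPM, where the other 4 had 3238 to 5370), 12 members were called. Without GC_RT 2 and 3, rich in macrophage markers, 0 were called by edgeR, where on all libraries 17 members had an unadjusted p under 0.05, with 4 by DESeq2 and 12 by limma with library weights. The 8 brown adipocyte markers, none at 0 in any scWAT library, summed to 64.5 to 172 CPM in GC_RT and 576 to 2798 CPM in Ctrl_RT, without overlap. Their part in the result was not tested.

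At 13 °C in subcutaneous fat, 0 members rose and 3 fell, with 2.59% of all genes called and 1.14% called lower. The median was -0.34 for the members and 0.01 for all genes (-0.17 and 0.02 with the length correction), and 10 of 77 were positive. Mrpl34 had 62.1, 49.0, 44.4 and 62.7 CPM in GC_CT, against 92.4, 158, 149, 129.9 and 148 in Ctrl_CT. No library overlapped, and the change was -1.31 ± 0.23 (edgeR adjusted p = 0.00277), called without any 1 of the 9 libraries. Mrpl39, a 39S protein, had 68.8, 48.6, 42.8 and 76.3 CPM in GC_CT, against 112, 126, 116, 133 and 78.2 in Ctrl_CT. The groups just failed to overlap, at 76.3 against 78.2 CPM, with a change of -0.94 ± 0.24 (edgeR adjusted p = 0.0363).

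Mrps36 had 8.96, 9.37, 14.1 and 8.19 CPM in GC_CT, against 13.5, 22.8, 19.6, 23.1 and 27.97 in Ctrl_CT. GC_CT 4 lay just above the lowest placebo library, and the change was -1.07 ± 0.28 (edgeR adjusted p = 0.0372). Its pseudogene Mrps36-ps1 differed by -1.07 ± 0.27 (edgeR adjusted p = 0.0316). Mrps36 was not called with the length correction (-0.77, edgeR adjusted p = 0.0696). Groups did not overlap for 9 members, all lower (Mrpl15, Mrpl16, Mrpl18, Mrpl22, Mrpl30, Mrpl34, Mrpl39, Mrps23 and Mrps31), against 4.17% of all genes.

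With 1 library left out, Mrpl39 and Mrps36 kept folds near those of all libraries and often missed the threshold. Mrpl39 was not called without Ctrl_CT 1, 2, 3 or 4 or GC_CT 1, 3 or 4 (-1.02 to -0.81, edgeR adjusted p = 0.0555 to 0.150), and Mrps36 without Ctrl_CT 2, 3, 4 or 5 or GC_CT 1, 3 or 5 (-1.10 to -0.96, edgeR adjusted p = 0.0623 to 0.131). The count was 1 without Ctrl_CT 2, 3 or 4 or GC_CT 1 or 3, and 2 without Ctrl_CT 5 or GC_CT 4 or 5. Without the 4 libraries with epithelial transcripts Mrpl34 differed by -1.08. That leaves 1 GC_CT library, which is assumed to vary like the other groups, so its lost calls say nothing of the epithelial transcripts. Brown adipocyte markers summed to 119 to 561 CPM in GC_CT and 907 to 3191 CPM in Ctrl_CT, again without overlap. Their part in the result was not tested.

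Complex I subunits had lower medians than the members in both corticosterone comparisons of subcutaneous fat. At 22 °C, 0 of 36 rose and 5 fell (median -0.68), with Ndufa6 at -1.16 ± 0.26, Ndufb9 at -1.05 ± 0.31 and Ndufb5 at -1.04 ± 0.25. At 13 °C, 3 fell (median -0.75): Ndufa1 (-1.45 ± 0.35), Ndufb6 (-1.27 ± 0.34) and Ndufc2 (-1.11 ± 0.27). At 22 °C the synthetases Lars2 (-1.98 ± 0.57), Pars2 (-1.26 ± 0.34) and Vars2 (-1.06 ± 0.28) fell among 17. Of 24 assembly genes, Malsu1, which keeps the subunits from joining early (-0.99 ± 0.25), Mterf4 (-0.78 ± 0.22) and Lonp1 (-0.66 ± 0.20) fell. The mitochondrially encoded mt-Co1 (-1.22 ± 0.36) and mt-Nd5 (-1.05 ± 0.29) fell, as did Esrrg (-3.54 ± 0.83). At 13 °C, Ppara fell (-2.20 ± 0.46) and the coactivator Pprc1 rose (1.08 ± 0.28). Of 82 cytosolic ribosomal proteins 0 were called at either temperature (medians 0.28 at 22 °C and -0.25 at 13 °C).

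**Figure D3:**
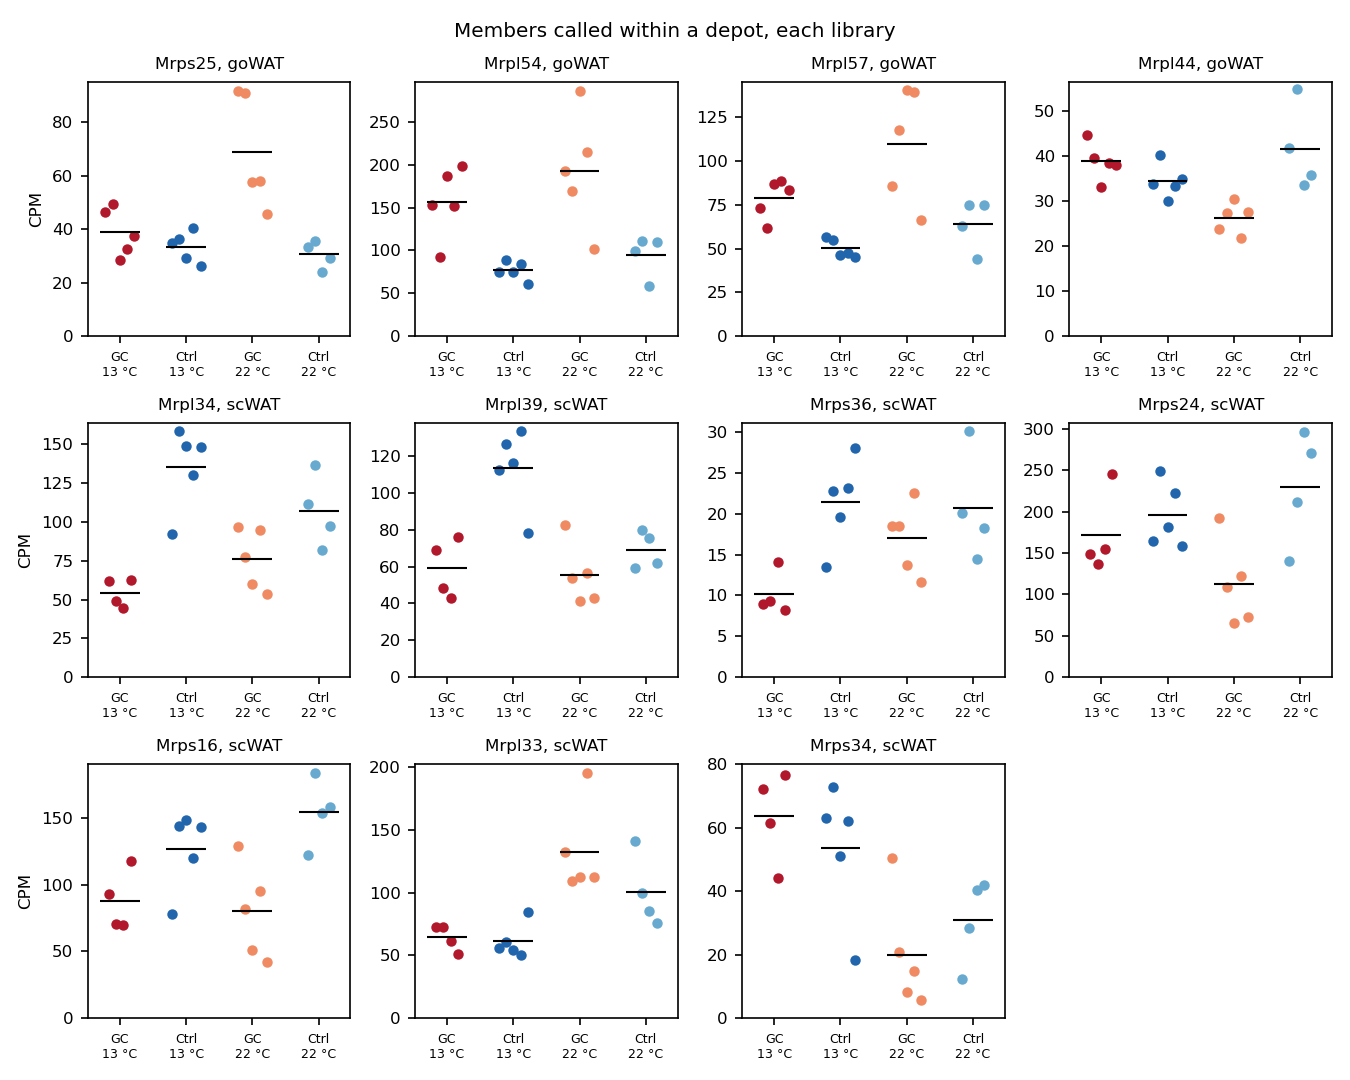
CPM of the 11 members called in a within-depot comparison, per library (points) and group mean (line), with the depot in each title and axes from 0. Mrps25 in goWAT and Mrpl34 in scWAT separate the compared groups, while Mrps24 and Mrps16 overlap through 1 library of GC_RT.

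Few members were called for cold housing in subcutaneous fat of corticosterone mice, a smaller share than over all genes. At 13 °C against 22 °C, 1 member rose and 1 fell, with 8.18% of all genes called (3.02% higher and 5.17% lower) and medians of 0.04 and 0.00. Mrpl33, a 39S protein with a bacterial counterpart, had 72.2, 72.8, 61.4 and 51.2 CPM in GC_CT, against 132, 109, 112, 195 and 112 in GC_RT. No library overlapped, and the change was -1.04 ± 0.24 (edgeR adjusted p = 0.0165). Groups did not overlap for 0 members higher and 3 lower (Mrpl18, Mrpl32 and Mrpl33), against 3.33% and 5.34% of all genes. Mrps34, a 28S protein whose loss causes Leigh-type disease in humans, had 72.3, 61.4, 44.2 and 76.6 CPM in GC_CT, against 50.3, 20.99, 8.30, 14.96 and 5.76 in GC_RT. GC_RT replicate 1 overlapped the cold group, and the rise was 1.66 ± 0.50 (edgeR adjusted p = 0.0464). Mapk8ip3, which shares exon bases with Mrps34, differed by 0.31 ± 0.25 (edgeR adjusted p = 0.452).

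Without GC_RT 1, 19 members were called. Mrps34 was called in that fit alone among the 9 that left out 1 library (1.42 to 1.80 and edgeR adjusted p = 0.0612 to 0.106 in the others). Mrpl33 was lost without GC_CT 3 or GC_CT 4 (-1.09 and -1.01, edgeR adjusted p = 0.0589 and 0.0567), where the count was 0, and it was 1 without GC_RT 2, 3, 4 or 5 or GC_CT 1. Without GC_RT 2 and 3 the count was 0, and with the length correction it was 7, all higher, with Mrpl33 at -0.50 (edgeR adjusted p = 0.129). In the same comparison 29 of 82 cytosolic ribosomal proteins fell and 0 rose (median -0.74). The synthetases Lars2 (2.59 ± 0.58), Pars2 (1.74 ± 0.34) and Nars2 (1.06 ± 0.29) rose, with Esrrg (2.91 ± 0.82), Nrf1 (0.88 ± 0.26), mt-Co1 (1.26 ± 0.36), mt-Nd5 (1.26 ± 0.29) and the complex I subunit Ndufv1 (1.04 ± 0.30).

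No member of brown fat was called in any comparison by edgeR's quasi-likelihood test. With corticosterone at 22 °C, 0 of 77 passed (0.664% of all 17163 genes called), 5 had an unadjusted p under 0.05, DESeq2 called 0 and limma with library weights 1 (medians -0.08 and 0.01). The member median was 0.38 without Ctrl_RT 3 and -0.26 without Ctrl_RT 1. The smallest adjusted p was that of Mrpl50 (0.68 ± 0.22, edgeR adjusted p = 0.190). Groups did not overlap for 2 members higher (Mrpl44 and Mrpl50) and 0 lower, against 4.29% and 3.28% of all genes. With corticosterone at 13 °C, 0 passed (0.728% of genes called, 0.32% higher and 0.408% lower), 4 had an unadjusted p under 0.05, and DESeq2 and limma called 1 each (medians 0.11 and 0.02). The member median was 0.23 without GC_CT 1 and -0.01 without GC_CT 4. Mrps6 had 70.0, 80.9, 71.7, 150.1 and 90.0 CPM in GC_CT, against 54.7, 37.8, 37.7, 46.8 and 58.2 in Ctrl_CT. Its groups did not overlap, at 0.98 ± 0.27 (edgeR adjusted p = 0.105). Such separation held for 2 members higher and 1 lower, against 1.21% and 1.44% of all genes.

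Cold gave no call in brown fat either. In placebo mice at 13 °C against 22 °C, 0 passed (0.0175% of genes), 14 had an unadjusted p under 0.05, DESeq2 called 3 and limma 9 (medians 0.17 and -0.04). The member median was 0.59 without Ctrl_RT 3 and -0.06 without Ctrl_RT 2, so its sign rests on single libraries of a group of 3. In corticosterone mice, 0 passed (0.00583% of genes), 19 had an unadjusted p under 0.05, DESeq2 called 4 and limma 0 (medians 0.35 and -0.03, or 0.16 and 0.00 with the length correction), and 65 of 77 were positive. Mrps14, a 28S protein with a bacterial counterpart, had 294, 305, 338, 438 and 299.9 CPM in GC_CT, against 159.7, 151, 200.02, 236 and 188 in GC_RT. It had 354, 404, 367, 282 and 319.6 CPM in Ctrl_CT, against 158, 194 and 222 in Ctrl_RT. Neither pair of groups overlapped, at 0.84 ± 0.20 with corticosterone and 0.85 ± 0.24 with placebo (edgeR adjusted p = 0.120 and 0.279). Mrpl42, at 508, 584, 346, 289.9 and 390.2 CPM in Ctrl_CT and 213, 211 and 193 in Ctrl_RT, differed by 1.04 ± 0.29 (edgeR adjusted p = 0.287). Groups did not overlap for 11 members higher and 1 lower in placebo mice, against 3.94% and 3.01% of all genes.

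Cold in placebo mice and in gonadal fat gave no call either. In goWAT of placebo mice, 0 passed (0.312% of genes called, 0.0198% higher and 0.292% lower); unadjusted p was under 0.05 for 5, and 0 passed by DESeq2 and by limma; Mrpl3 differed by -0.59 ± 0.24 (edgeR adjusted p = 0.603). In goWAT of corticosterone mice, 0 passed (0.0149%, with 0.00496% higher and 0.00991% lower); unadjusted p was under 0.05 for 17, with 1 by DESeq2 and 0 by limma; Mrps25 differed by -0.82 ± 0.22 (edgeR adjusted p = 0.128). In scWAT of placebo mice, 0 passed (0.0% of genes called); unadjusted p was under 0.05 for 9, with 0 by DESeq2 and 7 by limma; Mrpl33 differed by -0.72 ± 0.23 (edgeR adjusted p = 0.271). Of the lists of the pathway, Mtrf1l, a release factor, fell in goWAT of placebo mice (-1.72 ± 0.37) with 2 of 82 cytosolic ribosomal proteins.

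**Figure D4:**
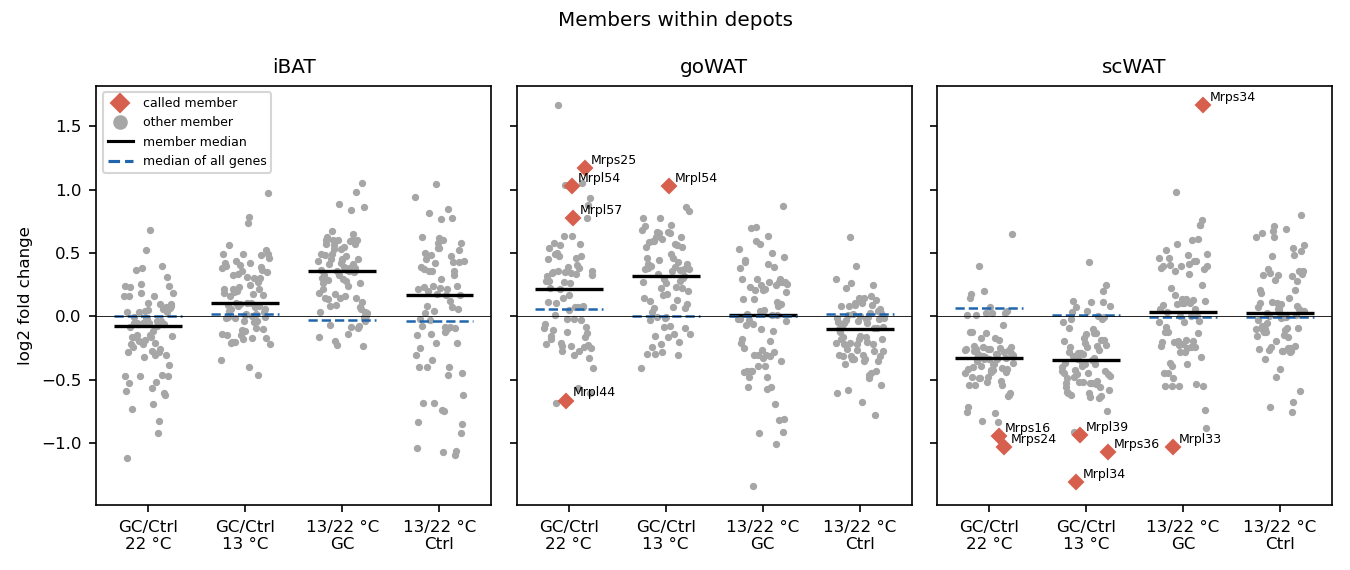
Log2 fold change of the 77 tested members (points) in the 4 comparisons of each depot, with called members as named diamonds, the member median as a black line and the median of all genes dashed. Member medians lie below 0 in both corticosterone comparisons of scWAT (-0.33 and -0.34) and above 0 in those of goWAT (0.22 and 0.32).

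Whether the effect of corticosterone differed between temperatures was tested as an interaction. In iBAT, goWAT and scWAT, 0, 0 and 0 members passed by edgeR (0.0%, 0.461% and 0.0% of genes called), with 2, 16 and 3 at an unadjusted p under 0.05. DESeq2 called 0, 1 and 0 and limma 0, 1 and 0. Mrpl3 of goWAT had the smallest adjusted p (1.28 ± 0.33, edgeR adjusted p = 0.0891), which was 0.0436 without Ctrl_RT 3, where 1 member was called.

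Whether it differed between depots was tested over all 55 libraries, where the GC effect of all 3 depots was compared for each gene. At 22 °C, 1 of 77 members passed, with 0.742% of all genes called: Mrpl44 (edgeR F-test adjusted p = 0.0259). In iBAT it had 64.0, 42.1, 47.6, 49.9 and 48.7 CPM in GC_RT, against 40.4, 35.1 and 29.6 in Ctrl_RT, all higher with corticosterone (0.52 ± 0.22). In goWAT all were lower, as given above (-0.67 ± 0.18). In scWAT the groups overlapped, with 50.4, 34.2, 32.7, 51.5 and 27.1 CPM in GC_RT, against 36.3, 42.5, 39.3 and 36.2 in Ctrl_RT (0.02 ± 0.20). The call was lost without iBAT Ctrl_RT 1 or 2 or GC_RT 1 or goWAT Ctrl_RT 2 or GC_RT 4 (edgeR adjusted p = 0.0515 to 0.0742), and 2 members were called without iBAT Ctrl_RT 3. Leaving out the 14 libraries that stood apart keeps 1 library each of iBAT Ctrl_RT and goWAT GC_RT, so that fit cannot test this call. The next smallest were Mrps25 and Mrps21 (edgeR adjusted p = 0.0958 and 0.105).

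At 13 °C, 1 of 77 passed, with 0.234% of all genes called: Mrpl34 (edgeR F-test adjusted p = 0.0247). In iBAT it had 354, 214, 408, 518 and 309 CPM in GC_CT, against 182, 275, 237, 271 and 366 in Ctrl_CT (0.44 ± 0.34). In goWAT it had 72.8, 63.8, 51.6, 81.4 and 66.96 CPM in GC_CT, against 57.7, 47.5, 33.2, 35.5 and 44.6 in Ctrl_CT (0.62 ± 0.23, edgeR adjusted p = 0.181). The groups overlapped in iBAT and goWAT and not in scWAT, where it was lower. The call was lost without scWAT Ctrl_CT 2 or GC_CT 3 or 4 (edgeR adjusted p = 0.0503 to 0.0802), and 2 members were called without scWAT GC_CT 5. Mrpl39 and Mrps6 followed (edgeR adjusted p = 0.131 and 0.164). Of the further lists, mt-Co1, mt-Cytb and Nars2 passed at 22 °C (edgeR adjusted p = 0.0245, 0.0414 and 0.0304).

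The members moved together with a measure of each library. The median deviation of the members from their mean over 55 libraries was set against the slope of all other abundant protein-coding genes on transcript length, over 5852 genes. Member transcripts are short, with a median of 1255 bases (418 to 7300). Libraries with a more negative slope, in which shorter transcripts were more abundant, had higher members. In iBAT Pearson's r was -0.876, in goWAT -0.787 and in scWAT -0.851 (n = 18, 19 and 18), and Spearman's rho -0.862, -0.758 and -0.839. Permutation p was 1e-05, 0.00011 and 1e-05 for r and 1e-05, 0.00029 and 1e-05 for rho (two-sided; 1e-05 is the smallest that these permutations can give). Over the 18 relations computed, adjusted p was 9e-05, 0.00066 and 9e-05 for r and 9e-05, 0.00174 and 9e-05 for rho. Without the 2 libraries farthest from the median slope, r was -0.840, -0.679 and -0.783, and within groups it was -0.918, -0.721 and -0.876.

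Slopes differed between groups in places. They were 0.02 to 0.12 in goWAT GC_CT and 0.15 to 0.25 in Ctrl_CT, and the steepest were those of iBAT Ctrl_RT 3 (-0.44), GC_CT 4 (-0.42) and GC_RT 3 (-0.37). With per-library offsets on transcript length, 69 members stayed higher and 2 were lower in iBAT against scWAT (median 0.86), and 68 were higher and 2 lower against goWAT (median 0.95). Against goWAT and against scWAT without the 14 libraries that stood apart, 68 and 71 were higher (medians 1.0 and 0.81). Member medians also went with brown adipocyte markers in iBAT (r = 0.713, rho = 0.730, permutation p = 0.00116 and 0.00096, adjusted 0.00522 and 0.00432; r = 0.622 without the 2 farthest). In scWAT this was r = 0.594 and rho = 0.579 (permutation p = 0.00882 and 0.0135, adjusted 0.0318 and 0.0486; r = 0.587 without the 2 farthest, 0.192 within groups). The share of counts on mitochondrial genes had r = 0.155, 0.119 and 0.165 (rho = 0.224, -0.046 and 0.168; permutation p = 0.535, 0.627 and 0.514 for r, adjusted 0.741, 0.806 and 0.741). Brown adipocyte markers in goWAT had r = 0.269 and rho = 0.205 (permutation p = 0.268 and 0.398, adjusted 0.537 and 0.652). Skeletal muscle markers in iBAT had r = 0.528 and rho = 0.498 (permutation p = 0.0246 and 0.0369, adjusted 0.0739 and 0.111). Macrophage markers in scWAT had r = -0.501 and rho = -0.360 (permutation p = 0.0337 and 0.142, adjusted 0.0866 and 0.308). The part of these measures in the differences between groups was not tested beyond these fits.

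**Figure D5:**
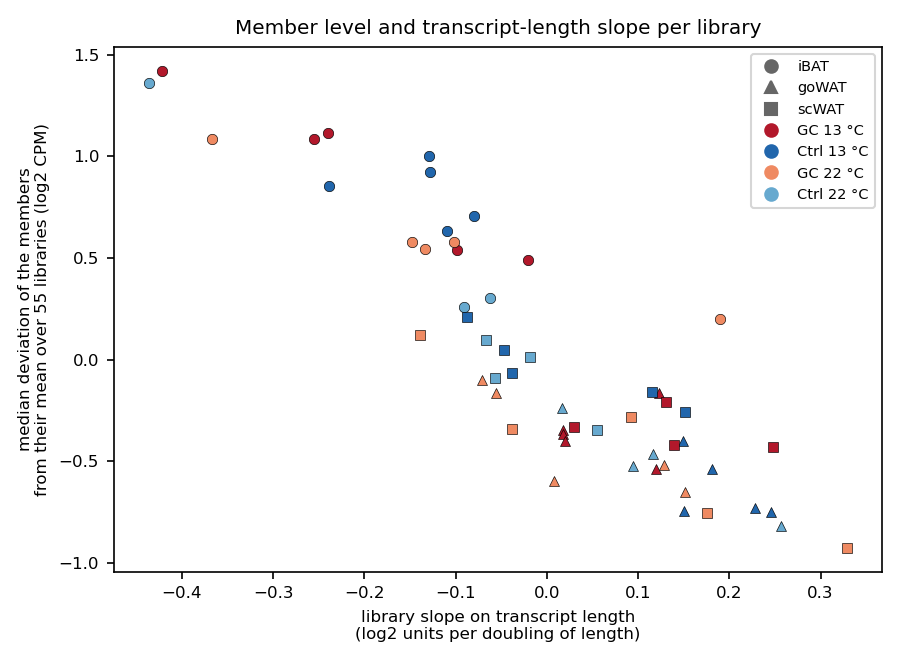
Each point is 1 of 55 libraries, with its slope on transcript length (log2 units per doubling of length) on the x axis and the median deviation of the members (log2 CPM) on the y axis. Shape marks the depot and colour the group, and members are higher where the slope is more negative, with r = -0.876 in iBAT.

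Within groups, pairs of members had a lower mean correlation than pairs of complex I subunits. The mean pairwise correlation of log2 CPM after removing group means for the members was 0.459 (iBAT), 0.231 (goWAT) and 0.458 (scWAT). For complex I subunits it was 0.639, 0.446 and 0.594, and for cytosolic ribosomal proteins 0.542, 0.498 and 0.497. These are descriptions over the same libraries, and the lists share their length slope.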

How the data were processed

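Raw counts per gene were deposited by the authors in 1 table for each depot, 31933 genes each. Per the submitters' processing notes, FastQC, GSNAP (2018-07-04) and featureCounts (1.6.3) were used, with mm10. Not given in the sources used here: annotation release, strand setting and handling of multiply mapped reads. GENCODE M21 named 31894 genes.

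Counts were tested with edgeR 4.0.16 in R 4.3.3 (robust quasi-likelihood, TMM, filterByExpr with minimum count 10, Benjamini-Hochberg over all tested genes, threshold 0.05), in 1 fit per depot and 1 over 55 libraries for comparisons between depots. DESeq2 1.42.0 and limma 3.58.1 (voom with quality weights) were alternatives, and the tests were tested on simulated data. CPM within depots use the scaling of that depot, and CPM across depots the joint one, with a pseudocount of 0.5 on log scales. Named members were those called (up to 8 per direction within depots, 6 between), those with the smallest adjusted p, extremes of level and spread, and a fixed set. The members and lists were chosen with earlier results of these data known. Alternatives that leave out libraries that stood apart, length offsets and pooled pseudogene counts were chosen after seeing the data.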

Additional observations from a re-analysis of the deposited data

Results flagged for a closer look

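The summed CPM of all members and the CPM of called members were tested for a library far from the others. Groups needed at least 4 libraries, so iBAT Ctrl_RT, with 3, was not tested. Of 35 groups tested, 1 was flagged, where chance flags about 1 in 20 groups. This was Mrpl33 in scWAT GC_RT replicate 4, at 195 CPM against 132 CPM in the next library. The effect of corticosterone differed between the 3 depots for Mrpl44 at 22 °C (edgeR F-test adjusted p = 0.0259) and for Mrpl34 at 13 °C (edgeR F-test adjusted p = 0.0247).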

How the results depend on the processing

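A biological coefficient of variation of 50.5% in iBAT, 49.99% in goWAT, 47.8% in scWAT and 52.95% over all libraries limits which small changes can pass. Of the counts of called members under alternatives, 420 stayed within 1.5 times and 102 moved; of the values of named members, 1569 kept direction and call, 130 lost the call, 21 gained it and 3 reversed. The 420 include comparisons with 0 members called in both fits, and the 1569 include members called in neither fit. These totals therefore overstate how steady the calls were. The causes of the changes were not tested.

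For corticosterone in goWAT at 22 °C (4 called), counts were 1 without the low-count filter, 7 by DESeq2, 2 by limma, 1 with only the compared groups, 1 without GC_RT 2 and 4 and 9 without GC_RT 1 and GC_CT 1. At 13 °C (1 called) they were 0 without the filter, 4 by DESeq2, 20 by limma, 4 with only the compared groups, and 0 without GC_RT 1 and GC_CT 1, without GC_RT 5, Ctrl_CT 1 and 4, or with length offsets. In scWAT at 22 °C (2) they were 1 without the filter, 4 by DESeq2, 12 by limma, 0 with only the compared groups, 0 without GC_RT 2 and 3 and 4 with length offsets. In scWAT at 13 °C (3) they were 5 by DESeq2, 11 by limma and 0 without the libraries with epithelial transcripts, where 1 GC_CT library is left and Mrpl34 kept -1.08. For cold in scWAT of corticosterone mice (2) they were 1 without the filter, 4 by DESeq2, 7 by limma, 1 with only the compared groups, 0 without GC_RT 2 and 3, 0 without the epithelial libraries (again 1 GC_CT library) and 7 with length offsets. With 1 library in an arm, assumed to vary like the other groups, a count of 0 says nothing about the libraries left out.

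Where edgeR called 0, limma called 1 for corticosterone in iBAT at 22 °C, DESeq2 and limma 1 each at 13 °C, DESeq2 3 and limma 9 for cold in placebo iBAT, and DESeq2 4 in corticosterone iBAT. DESeq2 called 1 for cold in corticosterone goWAT, DESeq2 and limma 1 each for the goWAT interaction, and limma 7 for cold in placebo scWAT. For iBAT against scWAT (75) the count was 27 in Ctrl_RT alone. For goWAT against scWAT (25) it was 14 with length offsets, 8 in Ctrl_RT, 1 in GC_RT, 13 in Ctrl_CT and 0 in GC_CT alone, and Mrps36 reversed to 0.0402 in GC_RT and 0.00443 in GC_CT, and Mrpl34 to 0.29 in GC_CT. For depot differences in the corticosterone effect, the count at 22 °C (1) was 0 without the filter, 4 by DESeq2 and 5 by limma. At 13 °C (1) it was 17 by limma. Leaving out the 14 libraries keeps 1 library each of iBAT Ctrl_RT and goWAT GC_RT, so it cannot test the effect at 22 °C.

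Leaving out 1 library gave 1 to 9 for corticosterone in goWAT at 22 °C, 0 to 2 at 13 °C, 0 to 1 for the goWAT interaction, 0 to 12 in scWAT at 22 °C, 1 to 3 at 13 °C and 0 to 19 for cold in corticosterone scWAT. It gave 72 to 76 for iBAT against scWAT, 74 to 75 for iBAT against goWAT, 18 to 33 for goWAT against scWAT, and 0 to 2 for each test between depots. The other comparisons stayed at 0 to 0. Length offsets moved the median of all genes by up to 0.13.

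Within iBAT, goWAT and scWAT, same-numbered libraries had median correlations of 0.0008, 0.0008 and -0.0258, ranging from -0.561 to 0.504. Other pairs had medians of -0.0127, -0.0004 and -0.0098. In the same order, 5 of 18, 1 of 19 and 2 of 18 libraries correlated best with their own number. Pairs between depots were not compared, so animals shared between depots were not tested. With the replicate number as a block, the counts were 1 and 0 in goWAT at 22 °C and 13 °C, 0 and 1 in scWAT at 22 °C and 13 °C, and 1 for cold in corticosterone scWAT.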
